A study of Mus musculus with 16 samples.

Results

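Genes that recruit or mark monocytes, 10 in all, were followed through B16F10 melanoma tumors of mice given α-ketoglutarate (α-KG), an anti-PD1 antibody or both. They were picked by gene symbol, with earlier results of these data known, from the 18929 genes in the table of expression values. The 10 were the CCR2 ligands Ccl2, Ccl7, Ccl8 and Ccl12, the CCR1 ligands Ccl6 and Ccl9, the receptors Ccr2, Ccr1 and Cx3cr1, and the surface marker Ly6c2. All 10 were measured, and all 10 passed the filter on low values, 0.5 FPKM or more in at least 4 of 16 tumors, which 12850 genes passed. FPKM counts sequenced fragments per kilobase of transcript, scaled to the mapped fragments of the library. Levels of different genes can therefore be compared per length. B16F10 is a mouse melanoma cell line, and its cells were implanted in the right abdomen. The hosts were C57BL/6 females aged 7 to 8 weeks. Intraperitoneal treatment began at a tumor volume of about 50 cubic millimeters and lasted 9 to 11 days. The 4 groups of 4 tumors were labelled Vehicle (corn oil, together with an isotype control antibody by the study's methods), PD1mAb (an antibody blocking PD1, an inhibitory receptor of T cells), alpha_KG (α-KG at 100 mg/kg) and aKG_PD1mAb (both agents). The last is called α-KG + anti-PD1 or the combination below. The tumors were independent samples, and no dose of the antibody was given in the labels. The design asks what each agent does to a transplanted tumor of 1 cell line, and whether α-KG changes the effect of PD1 blockade.

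Monocytes leave the bone marrow for the blood under the control of CCR2, the receptor for CCL2, CCL7, CCL8 and CCL12, and ligands of the same family draw them into inflamed tissue and tumors. CCR1 is carried by monocytes, macrophages and neutrophils and binds CCL6 and CCL9 among others, whereas CX3CR1, the receptor for the tethered chemokine CX3CL1, marks patrolling monocytes, many tissue macrophages and some cytotoxic lymphocytes. Ly6C, encoded in part by Ly6c2, is the surface protein by which classical mouse monocytes are recognized, and it is also found on activated and memory CD8 T cells. In a bulk tumor, more cells of a type and more RNA per cell cannot be told apart.

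The 6 ligand genes lie on mouse chromosome 11, in a pair of groups. In RefSeq annotation of build GRCm38.p6, Ccl2, Ccl7, Ccl12 and Ccl8 fall within 81.2 kb, from 82035577 to 82116799, on the plus strand, with Ccl11 between them. Ccl6 and Ccl9 fall within 20.2 kb, from 83572917 to 83593087, on the minus strand. Ccr1 and Ccr2 are neighbors on chromosome 9, within 147 kb from 123962126 to 124109140, with Ccr3 and Ccr1l1 in between. Cx3cr1 lies on the same chromosome from 120048683 to 120068296. Ly6c2, on chromosome 15 from 75108161 to 75112066, shares sequence with its neighbor Ly6c1. In all, 33% of its 50-base stretches also occur in another gene's transcript, nearly all of them in Ly6c1. Its level is uncertain to the extent that the counting split such reads. The other 9 genes shared 0% to 2.27% of their 50-base stretches.

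Promoter windows, the 250 bases before the start of transcription, were found in the RefSeq table for 8 of the 10 genes, all but Ccl2 and Ccl7. Those of neighboring ligand genes and of Ccr1 are shown because these genes moved together or apart in the comparisons that follow. Each sequence runs 5′ to 3′ on the strand of its gene, and capitals mark matches to any of 7 motifs searched on both strands.
Ccl12 (GRCm38.p6, chr11:82101595-82101844, plus strand): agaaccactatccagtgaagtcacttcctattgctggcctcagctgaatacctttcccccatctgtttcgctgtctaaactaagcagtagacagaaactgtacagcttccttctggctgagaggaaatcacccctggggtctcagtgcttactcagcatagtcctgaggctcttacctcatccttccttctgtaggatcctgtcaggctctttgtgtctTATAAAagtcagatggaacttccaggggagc
Ccl8 (GRCm38.p6, chr11:82114935-82115184, plus strand): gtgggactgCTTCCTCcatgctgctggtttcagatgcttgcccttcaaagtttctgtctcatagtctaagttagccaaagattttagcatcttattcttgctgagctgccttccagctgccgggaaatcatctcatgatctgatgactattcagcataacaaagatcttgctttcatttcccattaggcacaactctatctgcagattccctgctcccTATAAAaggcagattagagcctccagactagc
Ccl6 (GRCm38.p6, chr11:83593088-83593337, minus strand): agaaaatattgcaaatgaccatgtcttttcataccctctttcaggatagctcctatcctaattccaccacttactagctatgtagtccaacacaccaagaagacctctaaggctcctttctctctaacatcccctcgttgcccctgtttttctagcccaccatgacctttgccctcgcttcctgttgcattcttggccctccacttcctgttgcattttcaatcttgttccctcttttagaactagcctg
Ccl9 (GRCm38.p6, chr11:83578637-83578886, minus strand): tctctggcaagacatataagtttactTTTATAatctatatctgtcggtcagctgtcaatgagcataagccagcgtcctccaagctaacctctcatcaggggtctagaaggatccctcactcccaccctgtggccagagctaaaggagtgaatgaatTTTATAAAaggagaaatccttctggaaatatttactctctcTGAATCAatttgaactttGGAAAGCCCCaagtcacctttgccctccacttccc
Ccr1 (GRCm38.p6, chr9:123968693-123968942, minus strand): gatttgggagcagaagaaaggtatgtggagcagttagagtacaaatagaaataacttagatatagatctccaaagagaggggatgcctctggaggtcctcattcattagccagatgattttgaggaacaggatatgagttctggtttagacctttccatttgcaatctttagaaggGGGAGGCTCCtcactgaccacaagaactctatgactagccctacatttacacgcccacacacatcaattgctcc
The motifs were GGG and CC with any 5 bases between them, of the NF-κB type, held by 45.8% of 32851 promoter windows of this length, GAAA and GAAA with any 2 bases between them, of the interferon response type (2.98%), and TTCNNNGAA of the STAT type (7.02%). The others were TGANTCA of the AP-1 type (6.75%), GAGGAAG of the ETS type (10.6%), TTGCNNAA of the C/EBP type (9.56%) and the TATA box core TATAAA (12.4%). TATAAA stood 31 bases before the start in Ccl12 and 32 bases before it in the neighboring Ccl8, and it was also found in Ccl9. NF-κB-type matches were found in Ccr1, Ccl9 and Cx3cr1, ETS-type matches in Ccl8 and Ly6c2, and an AP-1-type match in Ccl9. The window of Ccl6, the neighbor of Ccl9, held none of the 7. These are matches of letters and were not tested for binding.

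The 7 melanocyte markers (Mlana, Pmel, Tyr, Dct, Tyrp1, Mitf and Sox10) summed to between 7845 and 10572 FPKM in the 16 tumors, which are labelled melanoma. Red cell genes differed between the groups, with a sum over 5 genes of 8062 to 8668 FPKM in combination tumors and 17310 to 107157 FPKM in the other 12 tumors, and all 5 were lower than vehicle in the combination. Skeletal muscle genes, 5 in number, summed to 49.7, 50.5, 66.7 and 644 FPKM in vehicle tumors 1 to 4. Their sums were 2.49 to 3.97 with anti-PD1, 3.3 to 4.13 with α-KG and 4.11 to 62.3 in combination tumors, and 4, 5 and 5 of them were lower than vehicle. The part of either tissue in the results below was not tested. The scale of the tumors also mattered for counts over all genes: the median difference between α-KG + anti-PD1 and vehicle over all genes was 0.15 (log2) as deposited. It was -0.16 after centring each tumor on its median and 0.34 after scaling all tumors to the same sum. The genes called higher and lower in that comparison were 4479 and 1348 as deposited, 2197 and 4803 after centring, 2241 and 3994 after quantile normalization and 6294 and 250 at the same sum. Against α-KG alone they were 4086 and 832 as deposited, 1758 and 3127 after centring, 2023 and 2020 after quantile normalization and 6829 and 368 at the same sum. Against anti-PD1 alone they were 1819 and 168, 802 and 1968, 721 and 1082, and 4198 and 36. For α-KG against vehicle they were 1080 and 968 as deposited, 1055 and 1379 after centring, 1039 and 1644 after quantile normalization and 843 and 403 at the same sum. For anti-PD1 against vehicle they were 60 and 36 as deposited, 134 and 67 after centring, 77 and 53 after quantile normalization and 15 and 14 at the same sum. For the interaction defined below they were 1027 and 402, and 389 and 633, 569 and 559, and 2110 and 284 under the 3 scalings. None of the differences from vehicle given for the 10 genes changed sign under any scaling.

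Monocyte chemokines and markers were low in vehicle tumors and had higher means in each treated group. Of the 10, 8 passed the test as higher than vehicle with α-KG alone, all 10 with the combination and 3 with anti-PD1 alone. Differences are in log2(FPKM + 1), a scale on which changes of low genes come out too small. They were tested with limma over all 12850 genes at an adjusted p under 0.05, and the 3 comparisons share the same 4 vehicle tumors. The adjustment ran over all genes within each comparison, so the counts of genes called do not compare the sizes of the differences. Ccl7, for example, differed by 2.04 ± 0.47 with α-KG (adjusted p = 0.0079) and by 1.99 ± 0.47 with anti-PD1 (adjusted p = 0.0598). With α-KG the median difference of the 10 genes was 1.93, against -0.04 over all genes, and 15.9% of all genes were called, 8.4% of all genes as higher. With the combination the median was 1.96, against 0.15 over all genes, and 45.3% of all genes were called, 34.9% of all genes as higher. With anti-PD1 the median was 1.74, against 0.03, and 0.747% of all genes were called, 0.467% as higher. The 4 treated tumors lay above all 4 vehicle tumors for 8 genes with α-KG, where this held for 10.1% of all genes, for 8 with anti-PD1 (5%) and for 10 with the combination (28.2%). For any such pair of groups an exact two-sided permutation test gave p = 0.0286, the smallest that 4 tumors against 4 allow.

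**Figure D1:**
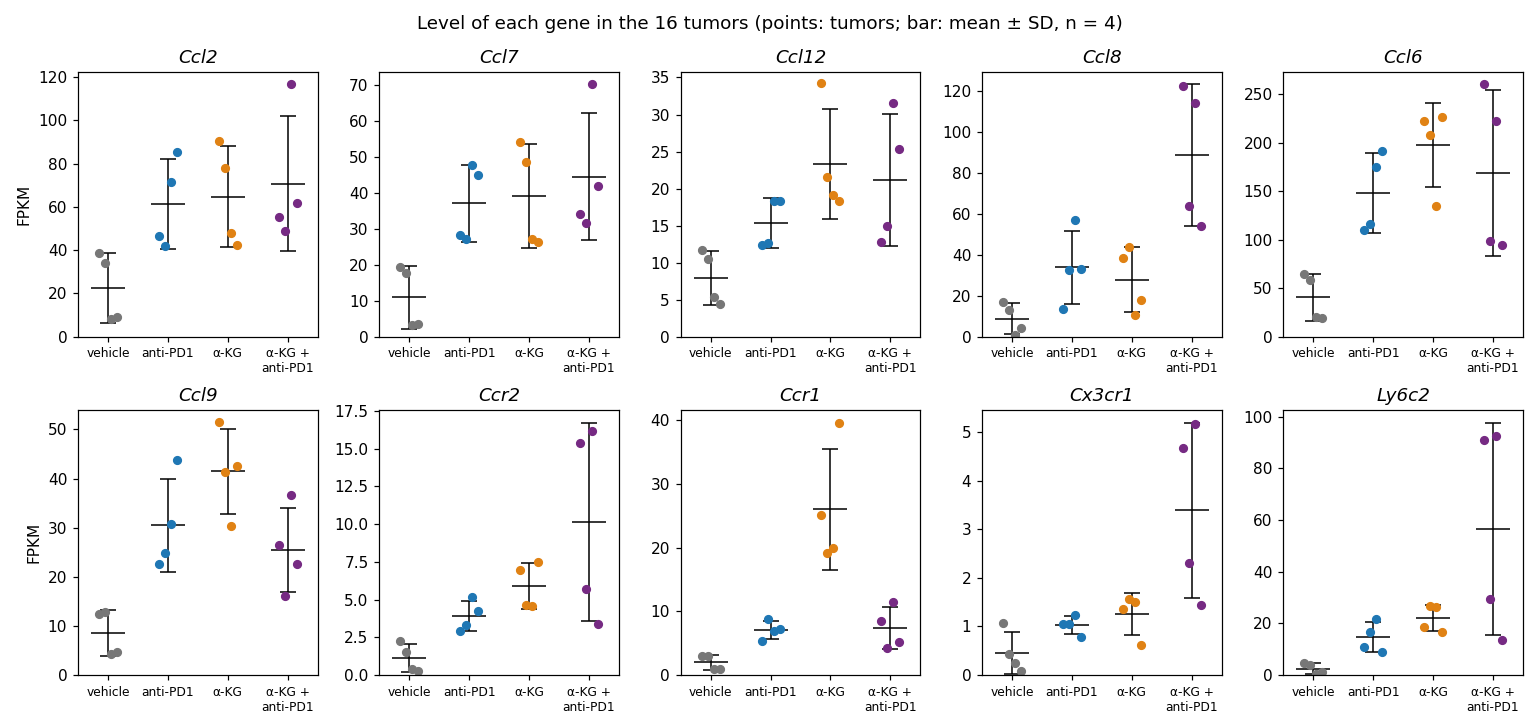
Level in FPKM (y axis, linear, a scale for each gene) of the 10 genes in the 4 groups (x axis), with a point for each tumor and a bar for the mean ± SD (n = 4). Vehicle tumors are the lowest group for each gene, Ccr1 stands highest in α-KG tumors at 19.2 to 39.6 FPKM, and Ly6c2 and Ccr2 are split within the α-KG + anti-PD1 group.

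Vehicle tumors themselves were split. Tumors 3 and 4 had the lowest 2 values of their group for all 10 genes, and tumor 1 the highest for 9. The 6 leukocyte markers (Ptprc, Coro1a, Laptm5, Cd53, Tyrobp and Cd52) moved with this, at a sum of 169 and 108 FPKM in tumors 1 and 2 and of 38.1 and 39.8 FPKM in tumors 3 and 4, and their part in it was not tested. They summed to 185 to 354 FPKM with anti-PD1, 524 to 621 with α-KG and 273 to 1020 in combination tumors, and 6, 2 and 6 of the 6 were higher than vehicle with α-KG, anti-PD1 and the combination. Of all genes, 8.4%, 0.467% and 34.9% were called higher in these comparisons. The 3 calls with anti-PD1 lay near the threshold, at limma adjusted p-values of 0.0322 to 0.0441. With 1 tumor left out, the differences of Ccl6, Ccl9 and Ccr1 from vehicle stayed at 1.74 to 2.30, 1.58 to 2.05 and 1.34 to 1.70, but the calls were not kept throughout. None of the 10 genes was called without vehicle tumor 3 or 4 or without anti-PD1 tumor 2, 3 or 4 (9 at an unadjusted p under 0.05 in each case). Without vehicle tumor 1, 9 were called. The same calls were also lost without the filter on low values, and Ccl6, Ccr1 and Ccl9 kept theirs under 6, 6 and 7 of 15 alternatives.

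Ccl2, the main CCR2 ligand of monocyte recruitment, measured 38.9, 33.9, 8 and 9.23 FPKM in the 4 vehicle tumors, 46.6, 41.8, 71.4 and 85.3 in anti-PD1, 90.6, 78, 47.8 and 42.5 in α-KG and 55.2, 48.9, 117 and 61.6 in combination tumors. The treated groups overlapped one another and lay above vehicle. Ccl2 rose by 1.73 ± 0.45 (log2, SE) with α-KG (limma adjusted p = 0.017) and by 1.83 ± 0.45 with the combination (adjusted p = 0.00477). With anti-PD1 the difference was 1.66 ± 0.45 (adjusted p = 0.0856). The α-KG call was lost without vehicle tumor 3, vehicle tumor 4 or α-KG tumor 1, and its adjusted p was 0.00401 to 0.0647 over the 15 alternatives. Ccl7, a ligand of CCR2 and of other receptors whose gene is next to Ccl2, measured 19.5, 17.6, 3.19 and 3.65 FPKM in vehicle, 28.4, 27.2, 47.7 and 45.1 in anti-PD1, 54.3, 48.6, 27.1 and 26.4 in α-KG and 34.2, 31.8, 70.3 and 41.9 in combination tumors. Its tumors stood in much the same order as those of Ccl2: α-KG tumors 1 and 2 were high, and so was combination tumor 3. Ccl7 rose by 2.04 ± 0.47 with α-KG (adjusted p = 0.0079) and by 2.22 ± 0.47 with the combination (adjusted p = 0.00194). With anti-PD1 it differed by 1.99 ± 0.47 (adjusted p = 0.0598).

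Ccl12, a mouse CCR2 ligand, had values of 11.7, 10.5, 5.33 and 4.42 FPKM in vehicle, 12.4, 12.6, 18.3 and 18.4 in anti-PD1, 34.3, 21.6, 19.2 and 18.3 in α-KG and 12.8, 14.9, 31.6 and 25.4 in combination tumors. It was the ligand of this cluster with the smallest difference from vehicle in each treatment, though still without overlap: 1.49 ± 0.31 with α-KG (adjusted p = 0.00395), 1.31 ± 0.31 with the combination (adjusted p = 0.00372) and 0.94 ± 0.31 with anti-PD1 (adjusted p = 0.141). Ccl8, which in the mouse also signals through CCR8, measured 17.1, 13.1, 0.86 and 4.24 FPKM in vehicle, 13.4, 32.4, 56.8 and 33.1 in anti-PD1, 38.3, 44, 10.8 and 18.2 in α-KG and 122, 64, 114 and 54 in combination tumors. Each single treatment overlapped vehicle, and the combination lay above both vehicle and α-KG. Ccl8 rose by 3.58 ± 0.63 with the combination (adjusted p = 0.00069), the mean going from 8.84 ± 7.57 to 88.6 ± 34.5 FPKM (SD, n = 4). With α-KG it differed by 1.83 ± 0.63 (adjusted p = 0.0607) and with anti-PD1 by 2.14 ± 0.63 (adjusted p = 0.108), and neither passed.

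Ccl6, a ligand of CCR1 made by myeloid cells, was the most abundant of the 10 transcripts in the mean of each group. It measured 64.6, 58.4, 20.1 and 19.4 FPKM in vehicle, 110, 117, 175 and 192 in anti-PD1, 222, 208, 134 and 227 in α-KG and 261, 98.7, 223 and 94.2 in combination tumors. No treated tumor was as low as any vehicle tumor, and combination tumors 2 and 4 were lower than any tumor given a single agent. Ccl6 rose in all 3 comparisons, by 2.44 ± 0.41 with α-KG (adjusted p = 0.000742), 2.01 ± 0.41 with anti-PD1 (adjusted p = 0.0441) and 2.09 ± 0.41 with the combination (adjusted p = 0.00122). Ccl9, another CCR1 ligand and the neighbor of Ccl6, measured 12.4, 12.8, 4.26 and 4.73 FPKM in vehicle, 22.7, 24.8, 30.7 and 43.8 in anti-PD1, 51.6, 41.3, 30.4 and 42.6 in α-KG and 26.4, 16, 36.6 and 22.7 in combination tumors. Its mean was highest with α-KG alone, and the 3 treated groups overlapped one another. Ccl9 rose by 2.27 ± 0.32 with α-KG (adjusted p = 0.000163), by 1.82 ± 0.32 with anti-PD1 (adjusted p = 0.0322) and by 1.56 ± 0.32 with the combination (adjusted p = 0.00176).

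Among the receptors, Ccr2 measured 2.24, 1.54, 0.38 and 0.3 FPKM in vehicle, 2.92, 3.31, 5.19 and 4.23 in anti-PD1, 6.95, 4.64, 4.6 and 7.49 in α-KG and 15.4, 5.73, 16.2 and 3.38 in combination tumors. Combination tumors 1 and 3 were the 2 highest of all 16, and tumor 4 was within the anti-PD1 range. The receptor rose by 1.79 ± 0.39 with α-KG (adjusted p = 0.00576) and by 2.28 ± 0.39 with the combination (adjusted p = 0.000625). With anti-PD1 it differed by 1.30 ± 0.39 (adjusted p = 0.115). Ccr1 measured 3.06, 2.98, 0.96 and 0.89 FPKM in vehicle, 5.33, 8.8, 6.96 and 7.26 in anti-PD1, 25.2, 19.2, 19.9 and 39.6 in α-KG and 8.47, 4.29, 11.5 and 5.2 in combination tumors. It was the one gene of the 10 for which the α-KG group lay above each of the other groups without overlap. Ccr1 rose by 3.22 ± 0.31 with α-KG (adjusted p = 3.55e-06), a ratio of means of 13.2, by 1.52 ± 0.31 with anti-PD1 (adjusted p = 0.0441) and by 1.51 ± 0.31 with the combination (adjusted p = 0.00179). Cx3cr1 was the lowest of the 10 in the mean of each group, at 1.07, 0.43, 0.25 and 0.09 FPKM in vehicle, 1.05, 1.05, 1.24 and 0.79 in anti-PD1, 1.35, 1.56, 1.51 and 0.62 in α-KG and 4.66, 2.3, 5.16 and 1.45 in combination tumors. Values of this size are the least precise, since the depth of the libraries is unknown. Cx3cr1 rose by 1.53 ± 0.27 with the combination (adjusted p = 0.000635). The single treatments, at differences of 0.65 ± 0.27 for α-KG (adjusted p = 0.11) and 0.52 ± 0.27 for anti-PD1 (adjusted p = 0.345), overlapped vehicle and did not pass.

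Ly6c2, the classical monocyte marker, measured 4.59, 3.95, 0.35 and 1.14 FPKM in vehicle, 11, 16.8, 21.9 and 9.01 in anti-PD1, 18.6, 26.7, 26.2 and 16.8 in α-KG and 91.1, 29.3, 92.4 and 13.4 in combination tumors. All treated tumors were above all vehicle tumors, and combination tumors 1 and 3 stood far above the other 14. Ly6c2 had the largest difference of the 10 genes with the combination, 3.88 ± 0.55 (adjusted p = 0.000417). It rose by 2.92 ± 0.55 with α-KG (adjusted p = 0.00193) and differed by 2.32 ± 0.55 with anti-PD1 (adjusted p = 0.0608). Combination tumors 1 and 3, which were high in Ccr2, Cx3cr1 and Ly6c2, also had the highest sums of the leukocyte markers, 958 and 1020 FPKM against 380 and 273 in tumors 2 and 4. The same held for 6 T cell markers (Cd3d, Cd3e, Cd3g, Cd247, Cd2 and Cd5), 163 and 134 against 47.1 and 19 FPKM. The T cell sum was 0.72 to 8.04 in vehicle tumors, 7.28 to 23.5 with anti-PD1 and 5.36 to 30.1 in α-KG tumors, and Cd3d and Cd5 were each at 0 in 1 vehicle tumor. All 6 were higher than vehicle with the combination, as were 34.9% of all genes, and none passed with either single agent. The part of other leukocytes in the level of these 3 genes was not tested.

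**Figure D2:**
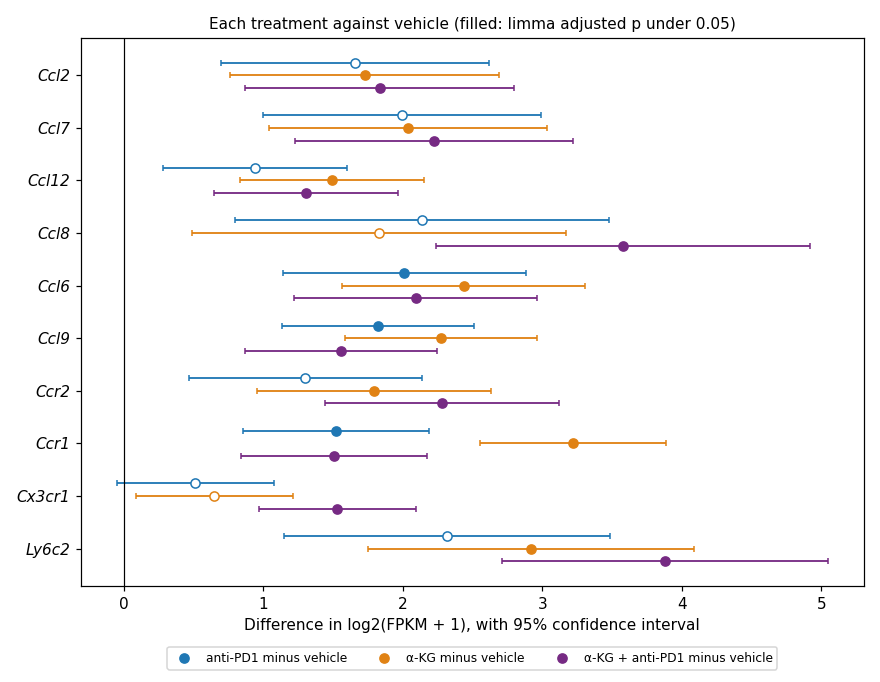
Difference from vehicle in log2(FPKM + 1) (x axis) for each of the 10 genes (y axis) with anti-PD1, α-KG and the combination, with 95% confidence intervals from the limma fit, and filled points for an adjusted p under 0.05. The 10 estimates for each treatment lie above 0, from 0.52 to 2.32 with anti-PD1, 0.65 to 3.22 with α-KG and 1.31 to 3.88 with the combination.

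The label of these genes was checked against 8 classical monocyte markers outside the 10: Plac8, Ms4a4c, Chil3, Vcan, F13a1, Ifitm6, Cd14 and Fn1. Their sum was 25.9 to 49.6 FPKM in vehicle tumors, 57.7 to 115 with anti-PD1, 270 to 507 with α-KG and 82.8 to 230 in combination tumors, while 8, 1 and 8 of the 8 passed as higher than vehicle with α-KG, anti-PD1 and the combination. For this count and those of the lists that follow, 8.4%, 0.467% and 34.9% of all genes were called higher in these comparisons. The sum was highest with α-KG alone, and Cd14 was the largest part of it there. Cd14 had means of 232 FPKM with α-KG and 12.7 in the combination, where the sums had means of 371 and 143. In all, 5 of the 8, Chil3, Vcan, F13a1, Ifitm6 and Cd14, were lower in the combination than with α-KG, where 6.47% of all genes were. Plac8 and Ms4a4c had higher means in the combination, 58.3 against 34.3 and 10.3 against 6.27 FPKM, and did not pass. Of 6 non-classical monocyte genes (Nr4a1, Ace, Treml4, Cd300e, Eno3 and Pou2f2), 3 rose and 1 fell with α-KG, none passed with anti-PD1 and 4 rose with the combination. The gene that fell was Eno3. Their sums were 67.6 to 88.4, 62.4 to 82.5, 69.3 to 112 and 80.1 to 116 FPKM in the vehicle, anti-PD1, α-KG and combination groups. Most of this was Nr4a1 and Eno3, with vehicle means of 50.6 and 24.8 FPKM, and neither passed with the combination. Ace, Treml4, Cd300e and Pou2f2, the 4 that rose with it, had means of 0.955, 0.375, 0.37 and 0.35 FPKM in vehicle. In the combination their means were 4.855, 2.61, 3.125 and 2.34 FPKM. Macrophage markers (Adgre1, C1qa, C1qb, C1qc, Mrc1, Cd68 and Mertk) summed to 96.4 to 477, 416 to 783, 408 to 674 and 658 to 1570 FPKM in the same order, with 1, 3 and 7 of 7 higher than vehicle with anti-PD1, α-KG and the combination. Natural killer cell genes (Ncr1, Klrb1c, Klra8 and Eomes) summed to 0.04 to 0.55, 0.66 to 2.42, 0.47 to 1.19 and 1.76 to 14.6 FPKM, with Klra8 at 0 in 7 tumors and Ncr1 in 4. The 2 that were tested, Ncr1 and Eomes, were higher than vehicle with the combination. Outside the combination group, Ncr1 reached the filter's 0.5 FPKM only in anti-PD1 tumor 3, at 0.58, so its call is no support. Dendritic cell genes (Flt3, Xcr1, Clec9a and Zbtb46) summed to 2.1 to 4.16, 3.97 to 4.15, 2.63 to 7.09 and 4.87 to 10.5 FPKM, and the 3 that were tested were higher with the combination. Fibroblast genes (6) summed to 30.7 FPKM in vehicle tumor 4, the vehicle tumor with the most muscle RNA, and to 4.48 to 10.9 FPKM in the rest. Endothelial genes (5) stayed between 0.45 and 4.54 FPKM in sum in the 16 tumors.

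The combination was set against each single treatment to ask what the second agent adds. Against α-KG alone, 3 of the 10 genes passed: Ccl8 and Cx3cr1 were higher and Ccr1 was lower. Of all genes 38.3% passed in this comparison, 31.8% as higher and 6.47% as lower, and the median difference of the 10 genes was 0.15, beside 0.16 over all genes. Ccr1 was lower by 1.71 on the log2 scale (-1.71 ± 0.31, adjusted p = 0.00128), each combination tumor lay below each α-KG tumor, which held for 5.68% of all genes, and the call held under each of the 15 alternatives. Ccl8 was higher by 1.75 ± 0.63 (adjusted p = 0.0395), again without overlap, where 29.7% of all genes lay wholly higher. Cx3cr1 was higher by 0.88 ± 0.27 (adjusted p = 0.0169), with overlap. Ccl8 kept its call under 7 of 15 alternatives and Cx3cr1 under 9. Without combination tumor 1, combination tumor 3 or α-KG tumor 4, and with a pseudocount of 0.1, Ccr1 was the one gene of the 10 still called, and after median centring neither of the higher calls passed.

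Against anti-PD1 alone, Cx3cr1 was the one gene called of the 10, higher by 1.02 ± 0.27 (adjusted p = 0.0249) with each combination tumor above each anti-PD1 tumor. In this comparison 15.5% of all genes passed, 14.2% as higher, and 13.6% lay wholly higher. The median difference of the 10 genes was 0.30 and that of all genes 0.12. Another 3 genes had an unadjusted p under 0.05, Ly6c2 at 1.56 ± 0.55 (adjusted p = 0.0622), Ccr2 at 0.98 ± 0.39 (adjusted p = 0.0947) and Ccl8 at 1.44 ± 0.63 (adjusted p = 0.122). The Cx3cr1 call held under 8 of 15 alternatives. It was lost without anti-PD1 tumor 1 or 4 or combination tumor 1 or 3, and 3 genes (Cx3cr1, Ccr2 and Ly6c2) were called without combination tumor 4. For Ccl2, Ccl7 and Ccl6 the differences were 0.17, 0.23 and 0.08, with 95% confidence intervals of -0.79 to 1.14, -0.77 to 1.23 and -0.79 to 0.95.

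Between the single treatments, Ccr1 was the one gene called of the 10, higher with α-KG than with anti-PD1 by 1.70 ± 0.31 (adjusted p = 0.0042) under the main settings and all 15 alternatives. Here 3.16% of all genes passed, 2.8% as higher with α-KG, and 5.41% lay wholly higher with α-KG. Ccl2 and Ccl7 were at nearly the same level in both groups, with differences of 0.07 (95% confidence interval -0.89 to 1.03) and 0.04 (-0.95 to 1.04).

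The interaction asks whether anti-PD1 changed a gene differently in mice with and without α-KG. It was negative and passed for 3 of the 10 genes, where 11.1% of all genes passed and 3.13% were negative: Ccr1 at -3.24 ± 0.44 (adjusted p = 0.000444), Ccl9 at -2.54 ± 0.46 (adjusted p = 0.00375) and Ccl6 at -2.35 ± 0.58 (adjusted p = 0.0196). For these 3, a receptor and 2 of its ligands, anti-PD1 went with higher levels than vehicle when given alone, by 1.52, 1.82 and 2.01, and with differences of -1.71, -0.72 and -0.34 when it was added to α-KG. Of those 3 differences from α-KG alone, that of Ccr1 passed, while Ccl9 (adjusted p = 0.0901) and Ccl6 (adjusted p = 0.531) did not. Ccl9 did pass as lower than with α-KG under 3 of 15 alternatives (median centring, quantile normalization and a fit of these 2 groups alone), over which its adjusted p was 0.0185 to 0.237. The 3 interactions were called under each of 22 alternatives. The median interaction over the 10 genes was -1.45, against 0.15 over all genes, and 9 of the 10 were below 0. The exception was Cx3cr1 at 0.37 ± 0.38 (adjusted p = 0.537), and Ccl8 at -0.39 ± 0.89 (adjusted p = 0.799) was nearest to it, with wide intervals. For Ccl2, Ccl7 and Ccl12 the interaction was -1.55, -1.81 and -1.12, at adjusted p-values of 0.12, 0.087 and 0.102. For Ly6c2 and Ccr2 it was -1.36 and -0.81, at adjusted p-values of 0.255 and 0.342.

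**Figure D3:**
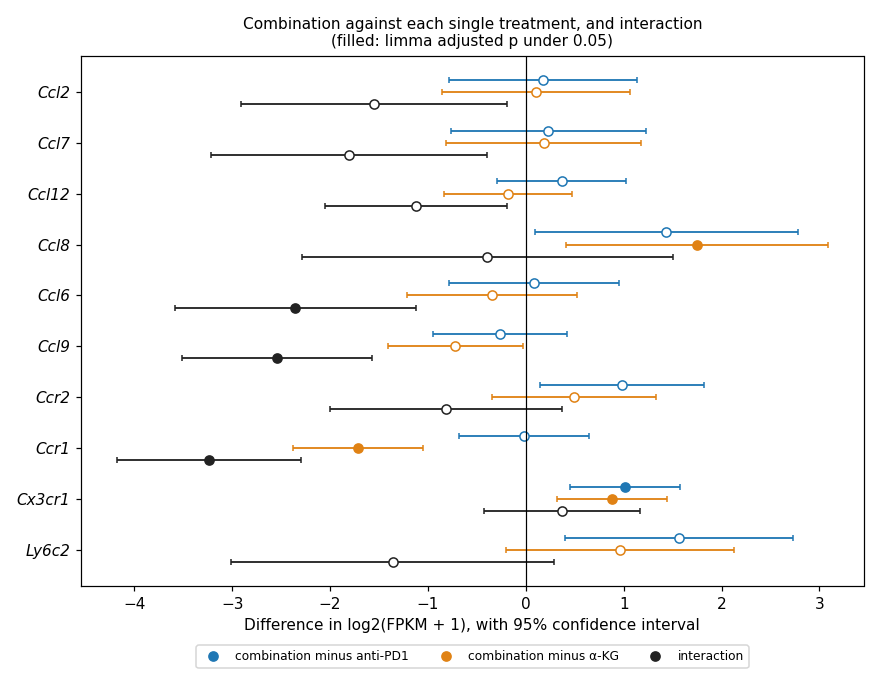
Difference in log2(FPKM + 1) (x axis) of the combination from anti-PD1 and from α-KG, and the interaction, for the 10 genes (y axis), with 95% confidence intervals from the limma fit and filled points for an adjusted p under 0.05. Filled interactions are those of Ccl6, Ccl9 and Ccr1, between -2.35 and -3.24, and Ccr1 is the one gene called lower in the combination than with α-KG.

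Neutrophil markers, like Ccr1, were highest in the α-KG group. The 7 genes S100a8, S100a9, Csf3r, Cxcr2, Retnlg, Mmp9 and Ly6g summed to 22.9 to 41.5 FPKM in vehicle tumors, 19 to 104 with anti-PD1, 1083 to 2882 with α-KG and 33.1 to 114 in combination tumors. Ly6g, which defines mouse neutrophils, was at 0 in 4 vehicle, 3 anti-PD1 and 2 combination tumors and at 1.57, 2.11, 9.16 and 4.38 FPKM in α-KG tumors. S100a8, S100a9, Csf3r, Cxcr2, Retnlg and Mmp9 were each higher with α-KG than with vehicle or anti-PD1, where 8.4% and 2.8% of all genes were. They were also lower in the combination than with α-KG (6.47% of all genes), and each had a negative interaction that passed (3.13%). Ly6g gave the same calls. It passed the filter on low values only through the 4 α-KG tumors, with at most 0.34 FPKM elsewhere, so its calls are no support. Against vehicle, 0 of the 7 passed with anti-PD1 and 2 were higher with the combination. In α-KG tumors 1 to 4 the sums were 1571, 1083, 2126 and 2882 FPKM, and Ccr1 was at 25.2, 19.2, 19.9 and 39.6 FPKM. Among vehicle, anti-PD1 and combination tumors, Ccr1 ranged from 0.89 to 11.5 FPKM. The part of neutrophils in the levels of Ccr1, Ccl6 and Ccl9 was not tested.

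**Figure D4:**
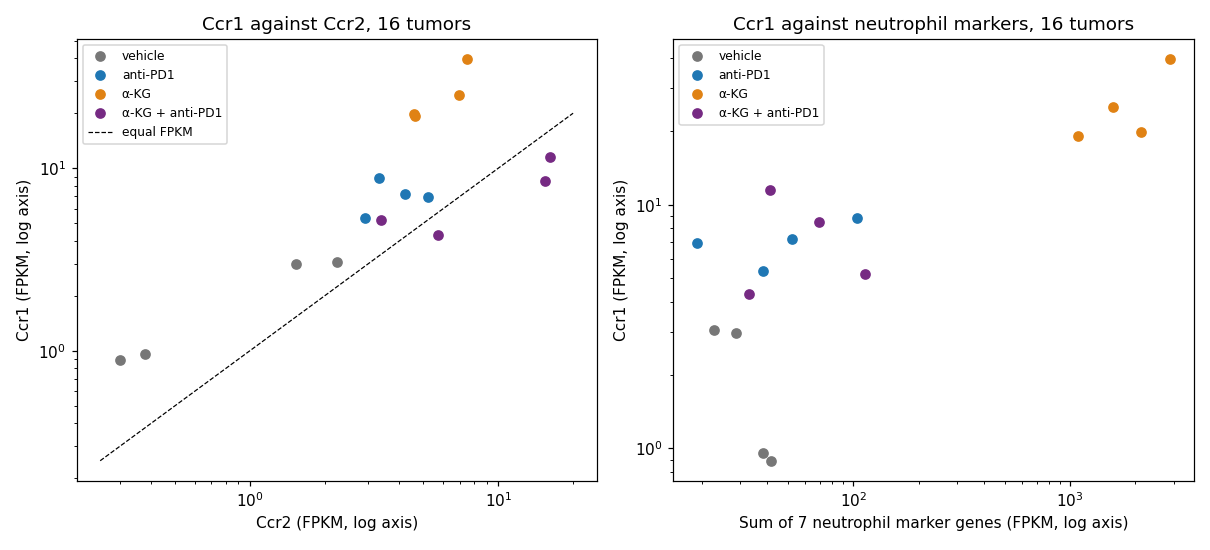
Ccr1 level (y axis, FPKM, log axis) in the 16 tumors against the Ccr2 level (left, FPKM, log axis, with a dashed line for equal values) and against the sum of 7 neutrophil markers (right, FPKM, log axis), colored by group. The 4 α-KG tumors form the group with the highest Ccr1 and with neutrophil sums of 1083 to 2882 FPKM, and 3 of the 4 combination tumors lie below the line of equal Ccr1 and Ccr2.

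Levels set against one another within a tumor do not depend on its scale. Ccr1 was 3.62 to 5.29 times the level of Ccr2 in α-KG tumors, above the 1.37 to 2.97 times in vehicle, the 1.34 to 2.66 times with anti-PD1 and the 0.55 to 1.54 times in combination tumors, with no overlap between α-KG and the rest. Ccl8 was 0.876 to 2.21 times the level of Ccl2 in combination tumors and 0.108 to 0.794 times in the other 12. Ccl7, in contrast, stayed between 0.395 and 0.68 times the level of Ccl2 in all 16 tumors, over a 14.6-fold range of Ccl2 itself. Ly6c2 was 3.97 to 5.92 times Ccr2 in the combination, 2.25 to 5.75 times with α-KG, 2.13 to 5.09 times with anti-PD1 and 0.921 to 3.8 times in vehicle tumors, so that the 3 treated groups overlapped. Ccl9 was 0.101 to 0.244 times Ccl6 in the 16 tumors. These ratios are given as descriptions and were not tested.

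Other genes of monocyte traffic were read from a list of 27, of which 20 passed the filter on low values and Ccl11, Cx3cl1, Ccr3, Ackr2, Csf2, Il34 and Il6 did not. Against vehicle, 14 of the 20 rose and none fell with α-KG, 2 rose with anti-PD1 (Ccl3 and Ccl4), and 18 rose and 1 fell (Ackr1, a decoy receptor of red cells and venules) with the combination. Their median differences were 2.43, 1.01 and 2.31. Of all genes, 8.4%, 0.467% and 34.9% were called higher than vehicle with α-KG, anti-PD1 and the combination. Between α-KG and the combination, 5 of the 20 were higher and 7 lower in the combination, where 31.8% and 6.47% of all genes were. A negative interaction passed for 10 of the 20, and for 3.13% of all genes. Against anti-PD1, 9 were higher with the combination and 9 with α-KG, beside 14.2% and 2.8% of all genes.

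Of the ligands on this list, Ccl3, a CCR1 ligand, had means of 8.81, 24.6, 528 and 80.4 FPKM in the vehicle, anti-PD1, α-KG and combination groups, and rose by 5.76 ± 0.31 with α-KG (adjusted p = 2.87e-08). Ccl4, another CC chemokine, had means of 6.75, 21.8, 348 and 58.1 FPKM in the same order and rose by 5.52 ± 0.35 (adjusted p = 8.17e-08). Both were highest with α-KG, like Ccr1, and both were higher in the combination than with anti-PD1, by 1.58 and 1.33 (adjusted p = 0.0105 and 0.0249), where Ccr1 did not pass. Their interactions of -4.18 and -4.19 passed (adjusted p = 3.67e-05 and 0.000111). Ccl5, a CCR1 ligand made largely by T cells, had the order of Ccl8 instead, with means of 9.08, 35.7, 28.6 and 171 FPKM, and was higher with the combination than with vehicle, by 3.89 ± 0.65 (adjusted p = 0.000564), and than with α-KG, by 2.35 ± 0.65 (adjusted p = 0.0111). Cx3cl1, the ligand of Cx3cr1, stayed between 0.09 and 0.46 FPKM in all 16 tumors.

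The receptor of the list with the largest rise with α-KG was Ccrl2, an atypical chemoattractant receptor that does not signal, from 1.31 ± 0.59 to 63.4 ± 19.4 FPKM (SD, n = 4), a difference of 4.78 ± 0.31 (adjusted p = 8.86e-08). Among growth factor genes it was Csf2rb, the shared receptor chain for GM-CSF, IL-3 and IL-5, with 3.17 ± 0.36 (adjusted p = 1.79e-05). Among adhesion molecules it was Itgam, with 2.97 ± 0.38 (adjusted p = 6.61e-05) and an interaction of -2.49 ± 0.54 that passed (adjusted p = 0.0107). In the combination Itgb2, the shared beta chain of the leukocyte integrins, differed most from vehicle among them, by 3.00 ± 0.43 (adjusted p = 0.000417). Among genes known to induce Ccl2 and its kin, Il1b, the inflammatory cytokine, had the largest difference, with means of 2.94, 6.89, 466 and 22 FPKM in the vehicle, anti-PD1, α-KG and combination groups, a rise of 6.94 ± 0.50 with α-KG (adjusted p = 1.91e-07). It showed a difference of -4.59 ± 0.50 in the combination against α-KG (adjusted p = 3.53e-05). Ifng, the T cell and natural killer cell cytokine, had the opposite order of α-KG and the combination, at means of 0.29, 1.26, 0.32 and 7.91 FPKM, and was higher in the combination than with α-KG by 2.44 ± 0.46 (adjusted p = 0.00151).

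Across the 16 tumors the 10 genes did not form a single pattern. As a description of log2(FPKM + 1) over tumors that share their group, Ccl2 and Ccl7 had a Pearson r of 0.994 (0.99 after the group means were removed), Ccl6 and Ccl9 one of 0.962 (0.901), and Ccr2 and Ly6c2 one of 0.955 (0.838). The lowest was that of Cx3cr1 and Ccr1, at 0.392 (0.462), followed by Ccl8 and Ccr1 at 0.483 (0.589). The tested gene outside the 10 with the highest r over the 16 tumors was Stab1 for Ccl2 (0.968), Ccl7 (0.98) and Ccl12 (0.924), Aif1 for Ccl8 (0.974), Fcgr3 for Ccl6 (0.975) and Adam8 for Ccl9 (0.973). For the receptors it was Myo1f for Ccr2 (0.986), Srgn for Ccr1 (0.987) and Spn for Cx3cr1 (0.971), and for Ly6c2 it was Plac8 (0.985), one of the classical monocyte genes named above. The next genes were close behind, with Plbd1 (0.984) and Il2rg (0.983) for Ly6c2 and Il21r (0.970) and Arhgef6 (0.970) for Cx3cr1.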

How the data were processed

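Poly(A) RNA of 16 tumors was sequenced on a DNBSEQ instrument after dUTP marking of the second strand, per the labels. The authors deposited 1 table of FPKM values for 18929 genes with Entrez gene IDs. The submitters' processing notes name HISAT, Bowtie2 and build mm10 without versions. The counting program, annotation and any filter are not given in the sources used here, so the depth behind a value is unknown, and sums of FPKM were 514180 to 654772 per tumor. After a log2 transform with a pseudocount of 1, genes that reached 0.5 FPKM in 4 or more tumors were kept, and 1 mean per group was fitted with limma 3.58.1 (R 4.3.3, eBayes with trend). Benjamini-Hochberg adjustment ran over all 12850 genes, with a threshold of 0.05. Single genes were also compared by exact permutation over 70 divisions of 8 tumors. Groups came from the labels, and no tumor was left out. The 10 genes and the gene lists were chosen with earlier results of these data known. All 10 genes are named. A few genes of the lists are not reported here and enter no count or sum of a list. Other traffic genes are named where they passed with the largest difference from vehicle in their role with α-KG or, for adhesion molecules, also with the combination. Further ones of the list were chosen after their values were seen. For likeness the gene with the highest r is named, and for Ly6c2 and Cx3cr1 the next ones as well. The limma script was tested on simulated data. The alternatives were a pseudocount of 0.1, no filter, 3 rescalings, fits of 2 groups, a replicate block and each tumor left out. Promoter sequences and positions are RefSeq's, build GRCm38.p6. Gene strands and the shared stretches of transcript came from GENCODE M21, the latter with the longest protein-coding transcript of each gene.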

Additional observations from a re-analysis of the deposited data

Results flagged for a closer look

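The interaction passed the test for 3 of the 10 genes, which means that the difference between anti-PD1 and no anti-PD1 itself differed between tumors with and without α-KG. It was -2.35 (log2) for Ccl6, -2.54 for Ccl9 and -3.24 for Ccr1, at limma adjusted p-values of 0.0196, 0.00375 and 0.000444. No tumor stood apart from the other 3 of its group by Dixon's criterion in any of the 40 sets of 4 values tested for the 10 genes.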

How the results depend on the processing

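Among the 10 genes, the tests of the combination against vehicle (10 genes called) and of α-KG against anti-PD1 (1 gene called) gave the same count under each alternative, α-KG against vehicle gave 7 to 10 and the interaction 3 to 4. Of the 3 genes called by limma with anti-PD1 against vehicle, the count became 5 with a pseudocount of 0.1, 5 after median centring, 1 at the same sum, 0 without the filter on low values (9 genes at an unadjusted p under 0.05), 0 when only these 2 groups were fitted (10 genes) and 0 with the replicate block (10 genes), and 0 to 9 when 1 tumor was left out. Against anti-PD1, 1 gene was called in the combination, 0 with a pseudocount of 0.1 (2 at an unadjusted p under 0.05), 0 after quantile normalization (3), 0 with these 2 groups alone (4), 3 at the same sum and 0 to 3 when 1 tumor was left out. Against α-KG, 3 were called in the combination, 1 with a pseudocount of 0.1 and 1 to 4 when 1 tumor was left out. The cause of these changes was not tested.

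Differences that changed sign were small and not called. After median centring, the combination differed from anti-PD1 by -0.059 for Ccl2, -0.0043 for Ccl7 and -0.15 for Ccl6, and from α-KG by -0.17 for Ccl2 and -0.089 for Ccl7. At the same sum, Ccr1 differed from anti-PD1 by 0.15 and Ccl12 from α-KG by 0.036, and with a pseudocount of 0.1 the interaction of Cx3cr1 was -0.049. With 1 tumor left out, the combination differed from anti-PD1 by -0.094 to 0.35 for Ccl2, -0.010 to 0.36 for Ccl7, -0.17 to 0.31 for Ccl6 and -0.24 to 0.18 for Ccr1, and from α-KG by -0.16 to 0.29 for Ccl2, -0.055 to 0.36 for Ccl7 and -0.40 to 0.017 for Ccl12. Likewise, α-KG differed from anti-PD1 by -0.12 to 0.24 for Ccl2, -0.13 to 0.20 for Ccl7 and -0.68 to 0.055 for Ccl8, and the interaction of Ccl8 was -0.85 to 0.25.

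The replicate numbers of the labels did not pair the tumors: over 24 pairs with the same number, deviations from the group means correlated with r from -0.642 to 0.411 (median 0.00689). The replicate block, used as a check only, gave 9, 0, 10, 1, 3, 1 and 3 genes called for α-KG, anti-PD1 and the combination against vehicle, the combination against anti-PD1 and against α-KG, α-KG against anti-PD1 and the interaction. The unknown depth limits the values under about 1 FPKM, here Cx3cr1 and vehicle values of Ccr1, Ccr2, Ly6c2 and Ccl8.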
